A study of Mus with 6 samples.

Results

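The IL-6 family and its feedback inhibitor were followed in mouse lens epithelial cells (LECs) from 0 h to 6 h post cataract surgery (PCS), the surgical removal of the lens fiber cells. The set consisted of 8 genes chosen by name: the ligands Il6, Lif and Osm, the receptors Il6ra, Il6st, Lifr and Osmr, and the inhibitor Socs3. Of these 8 genes, 7 could be matched to one of the 55421 counted genes. Lifr was not analysed here. Both groups were wild type C57BL/6 mice with no further allele or agent, and the labels separate them by the time after surgery alone. There were 3 libraries at 0 h PCS and 3 at 6 h PCS, all made from pools of 5 lens capsules with the attached LECs. The labels give an age of 2 months, whereas the methods give 3 to 5 months and both sexes. In the labels' account, surgery on the second eye followed 6 h after the first and both capsules were then taken, so capsules at 0 h and 6 h PCS can come from the same mice. The 0 h cells had therefore been through surgery as well, and the eye operated last belonged to an animal already injured in its other eye. Which pools share mice is not given.

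Most IL-6 family cytokines signal through receptors that share gp130, the product of Il6st. IL-6 first binds its own receptor α chain (Il6ra), LIF pairs gp130 with the LIF receptor, and mouse oncostatin M (OSM) pairs it chiefly with the OSM receptor (Osmr). The assembled receptor activates JAK kinases, which phosphorylate STAT3, and STAT3 drives Socs3, whose product binds gp130 and JAKs and shuts the signal off. In the eye, LIF is known as a cytokine that retinal cells make after injury.

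At 6 h PCS the ligands Il6 and Lif rose, as did the receptors Il6ra and Osmr, while the gp130 gene Il6st did not pass the test. Il6 and Lif had the largest fold changes of the 4, followed by Il6ra and Osmr. Il6st was abundant at both times. Of the 6 members that passed the low-count filter, 4 were upregulated DEGs (differentially expressed genes), against 4.53% of all 16810 genes tested (5.35% when both directions are counted). A DEG had a false discovery rate (FDR) of at most 0.05 over all genes tested and a fold change above 2. In 5 of the 6, all libraries at 6 h PCS lay above all at 0 h PCS, which held for 15.3% of all genes tested. These 6 had a median log2 fold change of 3.09, beside −0.0030 over all genes tested. All but Il6st were matched by name, and the names at hand lean towards changed genes. Among the 6373 tested genes with a name, 11.6% were upregulated DEGs, 26.8% had all 6 h libraries above all 0 h libraries, and the median log2 fold change was 0.19. Counts pool all cells on a capsule, so more cells of a type and more RNA per cell cannot be told apart.

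Gene counts ran from 18039974 to 24701039 per library. The 5 lens epithelial markers that could be matched (Pax6, Foxe3, Prox1, Sox2 and Epha2) were present in all 6 libraries. Their summed level, in CPM (counts per 1000000, normalized with TMM factors), ranged from 1291 to 1515 in the 0 h libraries and from 951 to 1228 in the 6 h libraries. These genes did not move together. Epha2 was an upregulated DEG (log2 fold change 1.21, edgeR adjusted p = 0.0134), though not without 0 h replicate 3 (1.14, 0.0551) or with library size scaling (0.91, 0.0296). Prox1 (−0.75, 0.0119) and Sox2 (−0.70, 0.0151) had all 6 h libraries below all 0 h libraries and fell short of the fold limit, which they passed with library size scaling (−1.07 and −1.02). Pigment cell genes (Tyrp1, Pmel, Dct and Tyr) set one library apart. Their sum was 51.4 to 209 CPM at 0 h PCS, and 77.4, 456 and 1965 CPM in 6 h replicates 1, 2 and 3. Of these 4 genes, 0 were DEGs by edgeR, DESeq2 or the exact test, and 0 had an unadjusted p under 0.05 in the quasi-likelihood test of edgeR (3 with DESeq2). The methods say that each pool joined 5 independent animals, but not whether pools share animals, and p-values measure the spread between the 3 pools of a time point.

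**Figure D1:**
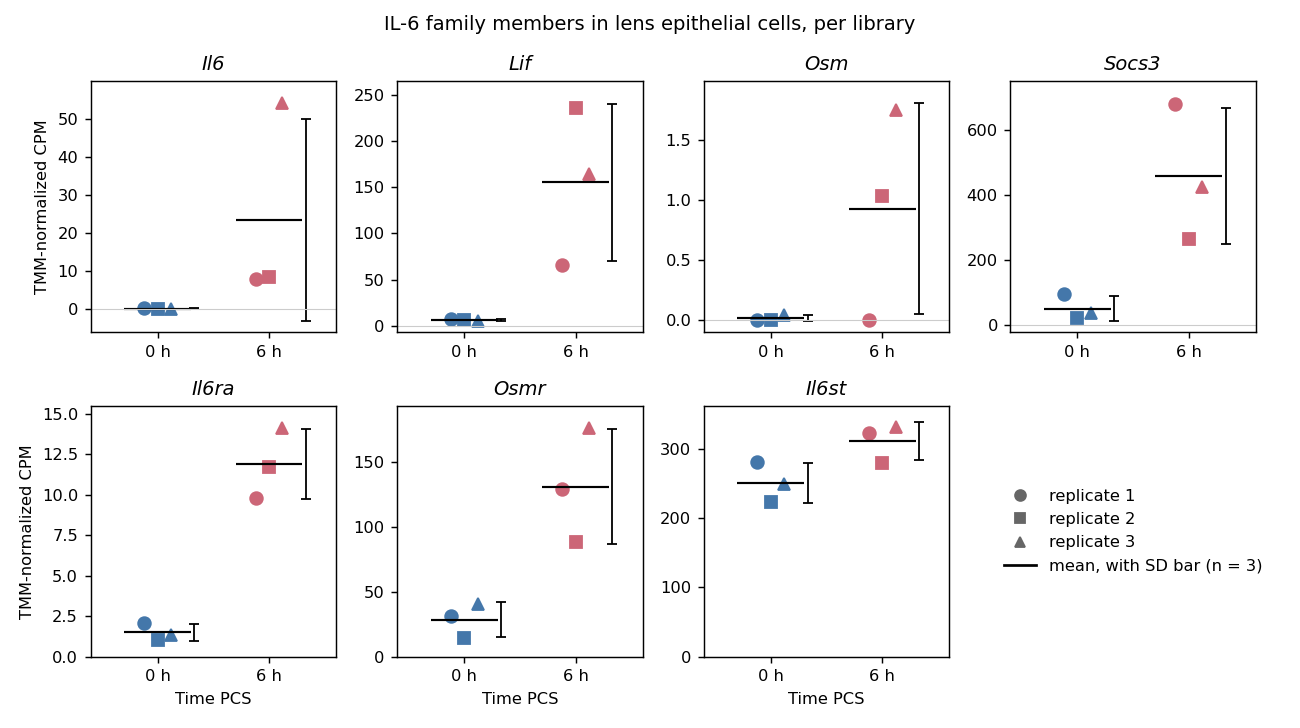
TMM-normalized CPM (vertical axes, linear) of the 7 matched genes in each library at 0 h and 6 h PCS, with the replicate number as the marker shape, the mean as a line and the SD as a bar (n = 3). The 6 h libraries lie above all 0 h libraries in Il6, Lif, Socs3, Il6ra and Osmr, and the groups overlap in Osm and Il6st.

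Among the ligands, Il6 encodes interleukin-6, the inflammatory cytokine that drives the acute phase response (chromosome 5 of GRCm38, 30013114 to 30019975). It had 8, 0 and 3 counts in 0 h replicates 1, 2 and 3, and 117, 187 and 900 counts in the 6 h replicates. On the CPM scale these were 0.344, 0 and 0.129 at 0 h PCS against 7.85, 8.41 and 54.2 at 6 h PCS. Il6 was thus close to undetected at 0 h PCS, above that level in every 6 h library, and far higher in one of them. With all libraries its log2 fold change was 7.23 (95% interval 3.62 to 10.8, Benjamini-Hochberg adjusted p = 0.0444 in the quasi-likelihood test of edgeR). The library with the most Il6, 6 h replicate 3, held 74.8% of the 6 h counts and was also the one with the highest pigment gene level. Without that library Il6 still rose, with a log2 fold change of 5.69 and an adjusted p of 0.00417 from the same edgeR test. The call was lost without 0 h replicate 1 (log2 fold change 8.47, edgeR adjusted p = 0.123), 0 h replicate 2 (6.59, 0.112), 0 h replicate 3 (7.13, 0.145) or 6 h replicate 1 (7.64, 0.063).

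Lif encodes leukemia inhibitory factor, a cytokine with roles from stem cell maintenance to the response of nervous tissue to injury (chromosome 11, 4257568 to 4272514). Its levels were 6.80, 6.05 and 4.75 CPM at 0 h PCS, against 65.8, 236 and 164 CPM at 6 h PCS. Unlike Il6, Lif was evenly expressed at 0 h PCS, with the highest 0 h library 1.43 times the lowest. At 6 h PCS the libraries spread by 3.59 times and replicate 2, not replicate 3, was the highest. The fold change of Lif was 26.5 (95% interval 10.8 to 64.6), and it stayed a DEG whichever of the 6 libraries was dropped, at log2 fold changes between 4.28 and 5.09. Its level per exon length reached 33.1 ± 20.6 FPKM (fragments per kilobase and per 1000000 counts, SD, n = 3) from 1.5 ± 0.231 FPKM.

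Osm encodes oncostatin M, which is best known as a product of activated leukocytes. The gene lies next to Lif on chromosome 11 (4236785 to 4241026), 16.5 kb away with no other RefSeq gene between them. It had 0, 0 and 1 count at 0 h PCS and 0, 23 and 29 counts at 6 h PCS. One 6 h library was therefore as empty as the 0 h libraries, and the groups overlapped. A count of 0 allows up to 3 counts, or 0.0732 FPKM in 6 h replicate 1, for counting error only, since reads of amplified libraries are not independent molecules. Osm did not pass the low-count filter and was not tested with the other genes. Summed over libraries, 52 counts stood against 1, a ratio of 71.5 on the TMM scale with an exact 95% counting interval of 12.3 to 2877. This interval leaves out the spread between pools. In the fit with no low-count filter, Osm was a DEG (log2 fold change 5.56, edgeR adjusted p = 0.0123). It passed the filter in 4 of the fits with a library dropped and was a DEG in 1 of them, without 6 h replicate 1 (6.17, edgeR adjusted p = 0.0286). The call was absent without 0 h replicate 1, 2 or 3, with edgeR adjusted p-values of 0.254, 0.188 and 0.168.

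The matched leukocyte markers were 8 of 16 (Ptprc, Lyz2, Itgam, Csf1r, Adgre1, Cd68, Laptm5 and Cx3cr1), none at 0 throughout a time point. Their summed level was 29.6, 24.0 and 14.9 CPM in 0 h replicates 1, 2 and 3. In 6 h replicates 1, 2 and 3 it was 20.3, 32.7 and 39.5 CPM. Of the 8, 7 were not called and 1 was an upregulated DEG, beside 11.6% of the named genes tested. This was Cd68, which encodes a lysosomal protein of macrophages (log2 fold change 2.55, edgeR adjusted p = 0.0129). Its call was lost without 0 h replicate 1 (edgeR adjusted p = 0.0671) or 6 h replicate 3 (0.0515). The part of these cells in the Osm counts was not tested.

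**Figure D2:**
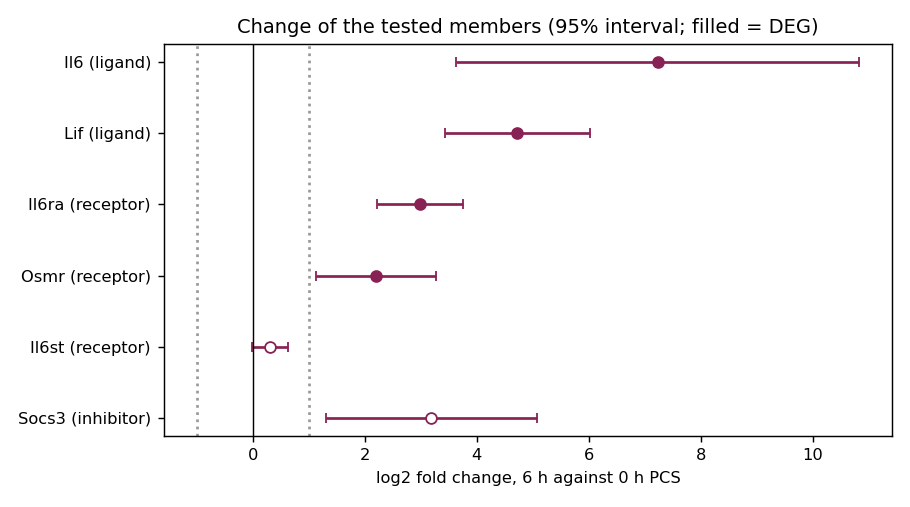
Log2 fold change at 6 h against 0 h PCS (horizontal axis) of the 6 tested members with 95% intervals from the edgeR fit; filled points are DEGs and dotted lines mark a fold change of 2. The intervals of Il6, Lif, Il6ra and Osmr lie wholly above the dotted line at 1, as does that of Socs3 (1.30 to 5.08), while that of Il6st lies between −0.010 and 0.63.

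Among the receptors, Il6ra encodes the chain that gives a cell its response to IL-6 (chromosome 3, 89869324 to 89913196). Its levels were 2.11, 1.06 and 1.34 CPM at 0 h PCS, against 9.80, 11.7 and 14.1 CPM at 6 h PCS. The groups were far apart and the 6 h libraries lay within 1.44 times of each other, the tightest of the 4 DEGs at that time. Its log2 fold change was 2.98 (standard error 0.343, edgeR adjusted p = 0.000863), and no single library was needed for the call in the 6 fits that dropped one. Per length it stayed low, at 0.193 ± 0.0665 FPKM and 1.24 ± 0.263 FPKM (SD, n = 3), below the 2 FPKM that the study requires for biological significance.

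Osmr encodes the signalling chain of the OSM receptor (chromosome 15, 6813568 to 6874968), and it lies 215.6 kb from Lifr with no protein-coding RefSeq gene between them. Its levels were 31.2, 14.1 and 40.6 CPM at 0 h PCS, against 129, 88 and 176 CPM at 6 h PCS. The lowest 6 h library was above the highest 0 h library, although the 0 h libraries differed by 2.88 times. Osmr rose, with a log2 fold change of 2.19 (standard error 0.443, edgeR adjusted p = 0.0346). The call was lost without 0 h replicate 1 (log2 fold change 2.26, edgeR adjusted p = 0.104), without 6 h replicate 1 (2.20, 0.129) and without 6 h replicate 3 (1.92, 0.0972).

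Il6st encodes gp130, the chain that the receptors for IL-6, LIF and OSM share (chromosome 13, 112464070 to 112506860). Its levels were 281, 223 and 249 CPM at 0 h PCS, against 323, 279 and 331 CPM at 6 h PCS. The highest 0 h library was just above the lowest 6 h library. Its log2 fold change was 0.31 (standard error 0.143, 95% interval −0.010 to 0.63, edgeR adjusted p = 0.232), so an increase above 1.55-fold lay outside the interval. The sign depended on the scaling, because with libraries scaled on their size alone the value was −0.011. That scaling moved the median of all genes tested to −0.32.

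Socs3 encodes the suppressor of cytokine signalling that STAT3 induces and that blocks gp130 (chromosome 11, 117966079 to 117970336). Its levels were 94.7, 20.7 and 35.2 CPM at 0 h PCS, against 681, 265 and 425 CPM at 6 h PCS. All 6 h libraries were above all 0 h libraries, but the 0 h libraries differed by 4.57 times and replicate 1 was the highest. Its log2 fold change was 3.19 (standard error 0.735, 95% interval 1.30 to 5.08) and its edgeR adjusted p of 0.0712 missed the FDR limit. Without 0 h replicate 1, Socs3 was a DEG with a log2 fold change of 4.03 (edgeR adjusted p = 0.00946). It was also called by DESeq2 (adjusted p = 0.000451) and by the exact test of edgeR (adjusted p = 0.000305), at log2 fold changes of 3.19 in both. With any of the other 5 libraries dropped, the edgeR adjusted p was between 0.0863 and 0.174.

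**Figure D3:**
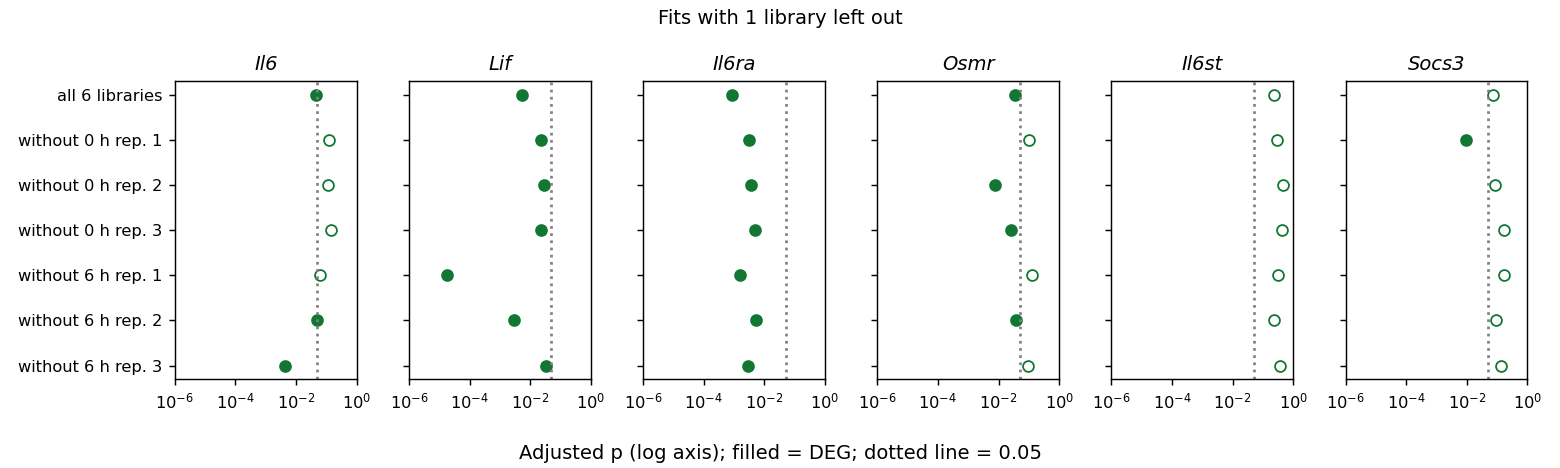
Adjusted p of the edgeR quasi-likelihood test (horizontal axes, log scale) for each tested member with all 6 libraries and without each library in turn; filled points are DEGs and the dotted line is 0.05. Lif and Il6ra stay filled in every fit, Il6 in 2 and Osmr in 3 of the 6 fits with a library dropped, and Socs3 is filled in 1.

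The same library did not lead in every member. At 6 h PCS, replicate 3 was the highest in Il6, Osm, Il6ra, Il6st and Osmr, replicate 2 in Lif and replicate 1 in Socs3. Replicate 1, the highest in Socs3, was the lowest in Il6, Lif, Osm and Il6ra. That library also stood apart in its reads, with 33.6% of read pairs counted on genes against 39.5% to 41.2% in the other 5 libraries, and it had the lowest TMM factor (0.827). The part of this in its levels was not tested. At 0 h PCS, replicate 1 was the highest in Il6, Lif, Il6ra, Il6st and Socs3, and replicate 2 the lowest in Il6, Il6ra, Il6st, Osmr and Socs3.

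Levels of different genes were compared per exon length, as FPKM, for the 6 members with an exon length at hand; Il6st had none. At 0 h PCS the order of the means was Socs3 (19.2 ± 14.6 FPKM), Osmr (2.65 ± 1.28), Lif (1.5 ± 0.231), Il6ra (0.193 ± 0.0665), Il6 (0.0719 ± 0.0778) and Osm (0.00724 ± 0.0125 FPKM, SD, n = 3). The ranges of Osmr and Lif overlapped, as did those of Il6ra and Il6 and those of Il6 and Osm. At 6 h PCS Socs3 remained the highest (138 ± 52.5 FPKM), and Lif (33.1 ± 20.6) now stood above Osmr (9.57 ± 2.85). They were followed by Il6 (8.55 ± 9.54), Il6ra (1.24 ± 0.263) and Osm (0.375 ± 0.343 FPKM, SD, n = 3). Lif exceeded Osmr in all 3 libraries at 6 h PCS, although their ranges overlapped, and Il6 and Osmr did not differ beyond their spread. By mean level per length, the receptor Osmr was thus the highest of these 5 ligand and receptor genes at 0 h PCS, and the ligand Lif at 6 h PCS.

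The balance of ligand and receptor was taken within each library, where the scaling of libraries cancels, with 0.5 added to each count. Per length, Il6 stood to Il6ra at ratios of 0.611, 0.0603 and 0.395 at 0 h PCS and of 2.85, 2.55 and 13.7 at 6 h PCS. Il6 had no count in 0 h replicate 2, which allows a ratio of up to 0.368. By these values the receptor exceeded the ligand in every 0 h library, although Il6 had only 8, 0 and 3 counts there. No counting limit was computed for 0 h replicates 1 and 3. The ligand exceeded the receptor in every 6 h library. The mean log2 ratio changed by 4.25, with an exact two-sided permutation p of 0.10, the smallest that 3 libraries against 3 can give. The change was 3.24 without 0 h replicate 2, in which Il6 had no count, 3.47 without 6 h replicate 3 and 4.91 without 0 h replicate 1. Lif was set against Il6st, in place of the unmatched Lifr, and only the change is given because Il6st had no length. Its log2 ratio changed by 4.24, again without overlap (exact permutation p = 0.10), and by 3.77 to 4.80 with a library dropped. Osm stood to Osmr at ratios of 0.00367, 0.00688 and 0.00849 at 0 h PCS and of 0.00139, 0.0640 and 0.0538 at 6 h PCS. In 3 of these 6 libraries (0 h replicates 1 and 2 and 6 h replicate 1) Osm had no count, so the ratio is set by the 0.5 added and by Osmr. The limit that a count of 0 allows was a ratio of 0.0221, 0.0413 and 0.00832 in those libraries. The log2 change of 1.49 (exact permutation p = 0.40) therefore says little about the balance of Osm and Osmr. It was 3.29 without 6 h replicate 1, 0.53 without 6 h replicate 2 and 0.65 without 6 h replicate 3. Adjusted over the 3 pairs, the permutation p-values were 0.15, 0.15 and 0.40.

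**Figure D4:**
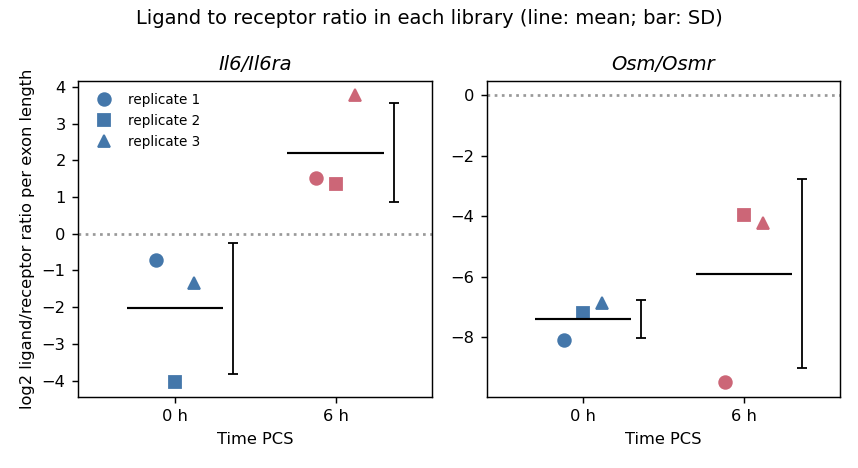
Log2 ratio of ligand to receptor per exon length (vertical axes) in each library at 0 h and 6 h PCS, with the mean as a line and the SD as a bar (n = 3). Il6/Il6ra lies below 0 in every 0 h library and above 0 in every 6 h library, whereas 3 of the 6 Osm/Osmr values rest on the 0.5 added to an Osm count of 0.

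The rest of the pathway was followed in 62 further genes in 6 lists, of which 37 could be matched and 36 passed the low-count filter. There were 16 upregulated DEGs and 0 downregulated DEGs among these 36 by the quasi-likelihood test of edgeR, against 11.6% upregulated over the 6373 named genes tested. At an unadjusted p under 0.05, 30 were higher and 0 lower, where 13.3% of all genes tested and 26.4% of those with a name were higher. DESeq2 and the exact test of edgeR both gave 23 upregulated and 0 downregulated DEGs. Over all genes these tools called 6.4% and 5.96% higher, and over genes with a name 15% and 14.2%.

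Of the other ligands of the family, 1 of 8 was matched, Clcf1, which encodes a secreted cytokine that acts through the CNTF receptor. It was not a DEG by the quasi-likelihood test of edgeR, although its unadjusted p was under 0.05. Clcf1 was at 12.8 ± 7.32 CPM at first and at 50.6 ± 14.0 CPM 6 h later (SD, n = 3), with all 6 h libraries above the 0 h libraries and an edgeR adjusted p of 0.0538. It was a DEG without 0 h replicate 2 (edgeR adjusted p = 0.0151) or 0 h replicate 3 (0.0163). DESeq2 and the exact test of edgeR both called it. So did the edgeR 4 method, library size scaling (edgeR adjusted p = 0.0499) and the fit with the replicate number as a block. Of the other receptors, Cntfr and Il31ra were matched, and 0 of the 2 were DEGs by any tool or had an unadjusted p under 0.05. Cntfr, the receptor chain for CNTF and for the product of Clcf1, was at 22.6 ± 1.26 and 20.8 ± 2.91 CPM (SD, n = 3), and its groups overlapped. Il31ra, a receptor chain for IL-31, was at 1.37 ± 0.677 and 1.16 ± 0.936 CPM (SD, n = 3). The log2 fold change of Clcf1 was 1.99 (standard error 0.475), and the 2 receptor genes had a median of −0.18.

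Of the 6 tested genes for JAKs, STATs and adaptors, 3 were upregulated DEGs and 0 downregulated, with a median log2 fold change of 0.95. Stat5a rose by 1.88 on the log2 scale (standard error 0.210) and Stat3, the main STAT of gp130, by 1.26 (standard error 0.151). Jak1, the kinase on which gp130 chiefly relies, rose by 1.03 (standard error 0.150), barely past the fold limit. It fell short of that limit without 0 h replicate 2 (log2 fold change 0.99) and without 6 h replicate 3 (0.88). With libraries scaled on their size alone, Stat3 (log2 fold change 0.94) and Jak1 (0.71) were not DEGs, while Stat5a (1.58) was. Jak2 (log2 fold change 0.88, edgeR adjusted p = 0.0050) and the adaptor Grb2 (0.82, 0.00933) passed on FDR but fell short of the fold limit. Of all genes tested, 6.31% were higher at 6 h PCS and met the FDR limit at any fold. The adaptor gene Sos1, named after its values were seen, was the one member of this list with all 6 h libraries below all 0 h libraries (39.2 ± 2.81 and 31.6 ± 2.54 CPM, SD, n = 3). Its log2 fold change was −0.31 (edgeR adjusted p = 0.239), and −0.62 (0.0389) with library size scaling.

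Among the feedback inhibitors, 5 of 11 genes were matched and 2 of the 5 were upregulated DEGs, beside 11.6% of the named genes tested. Their median log2 fold change was 1.64. Ptpn6, named after its values were seen, had overlapping groups (log2 fold change −0.064, edgeR adjusted p = 0.935). Cish, a SOCS family member best known as a target of STAT5, rose from 0.848 ± 0.310 to 10.8 ± 5.45 CPM (SD, n = 3; log2 fold change 3.67, edgeR adjusted p = 0.00149). Ptpn2, a phosphatase of JAKs and STATs, rose by a log2 fold change of 1.39 (edgeR adjusted p = 0.0104). Both kept their calls in each of the 6 fits with a library dropped. Socs1 (2.58 ± 2.37 and 15.3 ± 6.22 CPM, SD, n = 3) and Socs2 (1.46 ± 0.939 and 4.58 ± 0.418 CPM) had 6 h libraries above all 0 h libraries but were not DEGs by the quasi-likelihood test of edgeR (adjusted p = 0.137 and 0.110). Socs1 was one by the exact test of edgeR (adjusted p = 0.0366) and without 0 h replicate 2 (log2 fold change 2.06, edgeR adjusted p = 0.0373). Socs2 was one by DESeq2 (adjusted p = 0.0357). For receptor shedding, which releases soluble IL-6 receptor, 3 of 5 genes were matched. Timp3, an inhibitor of the shedding proteases, was a DEG (543 ± 45.2 to 1343 ± 525 CPM, SD, n = 3; log2 fold change 1.31). Its call was lost without 0 h replicate 1 (edgeR adjusted p = 0.0841), 0 h replicate 3 (0.0657) or 6 h replicate 2 (0.0713). Rhbdf1 and Rhbdf2, which bring the protease ADAM17 to the cell surface, had log2 fold changes of 0.58 and 0.40 and were not DEGs.

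Of 22 genes that STAT3 is known to drive in various cells, 19 were tested, 10 were upregulated DEGs and 0 downregulated. Their median log2 fold change was 2.38, and in 17 of the 19 all 6 h libraries lay above the 0 h libraries, which held for 15.3% of all genes tested and for 26.8% of those with a name. DESeq2 and the exact test of edgeR, which call more genes in all, each called 15 of the 19. Hif1a (log2 fold change −0.39, edgeR adjusted p = 0.219) and Bcl6 (−0.13, 0.725), named after their values were seen, were the 2 tested genes of the list with values below 0. Most of these genes also answer to other signals, including MAPK and NF-κB. The 5 with the firmest calls were Cebpd (log2 fold change 3.04, edgeR adjusted p = 0.000142), Cebpb (1.77, 0.000267), Pim1 (2.45, 0.000343), Mcl1 (1.57, 0.000619) and Timp1 (2.38, 0.00196). Cebpb and Cebpd encode C/EBP factors of the acute phase response, Pim1 and Mcl1 encode survival proteins, and Timp1 a protease inhibitor. These 5 and Cd14, which encodes a co-receptor for bacterial lipopolysaccharide that also marks monocytes (3.91, 0.00409), kept their calls whichever library was dropped.

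The other STAT3-responsive DEGs were less stable. Junb, an AP-1 gene (log2 fold change 3.25), was no longer called without 6 h replicate 1 (edgeR adjusted p = 0.0643) or 6 h replicate 3 (0.0601). Icam1, an adhesion molecule for leukocytes (2.85), was lost without 0 h replicate 1 (0.112) or 6 h replicate 2 (0.0783). Serpina3n, an acute phase protease inhibitor (3.06), was lost without 0 h replicate 1 (0.0825), 0 h replicate 2 (0.0583), 6 h replicate 1 (0.0961) or 6 h replicate 3 (0.0653). Bcl3, a cofactor of NF-κB (2.42), was lost without 0 h replicate 3 (0.12) or any single 6 h library (0.0514, 0.0691 and 0.0784 without 6 h replicates 1, 2 and 3). Fgl2 (log2 fold change 4.73, edgeR adjusted p = 0.0768) and Steap4 (4.22, 0.114) had the largest values among the genes not called by that test. Like Il6, they were much higher in 6 h replicate 3 than in 6 h replicate 1, with 1870 against 223 counts in Fgl2 and 1456 against 99 counts in Steap4. Without 6 h replicate 3 their log2 fold changes were smaller and both were DEGs, Fgl2 at 3.32 (edgeR adjusted p = 0.0101) and Steap4 at 2.54 (0.0173). DESeq2 and the exact test of edgeR called both with all libraries.

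**Figure D5:**
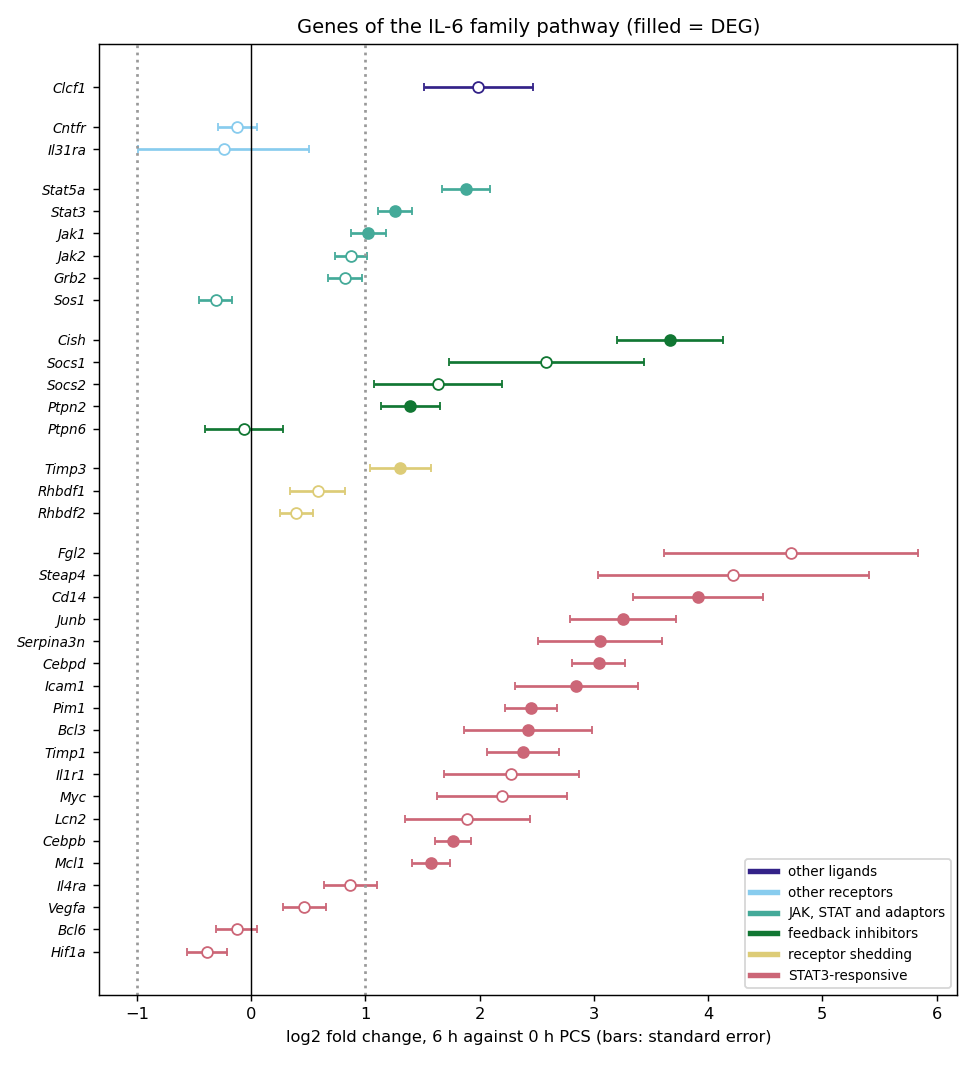
Log2 fold change at 6 h against 0 h PCS (horizontal axis) with its standard error for the 36 tested pathway genes, coloured by list; filled points are DEGs and dotted lines mark a fold change of 2. All 16 DEGs lie to the right, 10 of them in the STAT3-responsive list, and both other receptors lie near 0.

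Genes whose pattern over the 6 libraries was closest to a member were sought among the tested genes with a name, by Pearson's r of log2 CPM. For Il6 they were Lipg, Elf3 and C2cd4b, each with r = 0.996. For Lif they were Htr1d, Gm31045 and Csf3 (r = 0.996, 0.996 and 0.995), the last a colony-stimulating factor for neutrophils. For Osmr they were Sowahc, Trim47 and Yap1 (r = 0.996, 0.995 and 0.995), and for Socs3 Tm4sf1, Relt and Rnf122 (r = 0.997, 0.997 and 0.996). These values describe 6 points that fall into 2 groups and share their libraries and depth, so any gene separated in the same proportions scores high.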

How the data were processed

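RNAseq was measured in 6 libraries, 3 at 0 h PCS and 3 at 6 h PCS, grouped by the sample titles. The authors aligned read pairs of 101 nt to GRCm38 with Hisat2 and deposited raw counts per Ensembl gene from HTSeq in union mode; the strand setting is not given in the sources used here. The 5 summary rows (58.8% to 66.4% of read pairs) were left out. Counts were analysed with edgeR 4.0.16 in R 4.3.3 as in the study: TMM factors (0.827 to 1.15), filterByExpr, robust dispersions and the quasi-likelihood F-test in its earlier form. Standard errors are the absolute log2 fold change divided by the square root of F. The fit was also run on simulated counts with the same dispersion for every gene. That run does not show how the fit handles genes that vary as much as Il6. FPKM used total gene counts and the study's union exon lengths.

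Symbols were read from the supplementary tables, as far as given, and covered 7024 counted genes. Il6st was matched by its Ensembl ID. One gene was left out of the pathway lists and is not reported here. Coordinates are those of RefSeq on GRCm38.p6. Members, lists, tests and the rule for named genes (all members, called pathway genes, up to 2 of the largest uncalled changes per list, and the 3 genes most like Il6, Lif, Osmr and Socs3) were chosen with earlier results of these data known. The pairing of Lif with Il6st was chosen after Lifr could not be matched. Alternatives were DESeq2 1.42.0, the exact test, the edgeR 4 method, other scalings and filters, a test against a fold change of 2, a replicate block and leaving out each library.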

Additional observations from a re-analysis of the deposited data

How the results depend on the processing

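Over all genes tested, 900 were DEGs, 762 higher and 138 lower. A test against a fold change of 2 left 221, and dropping a single library gave 553 (without 0 h replicate 1) to 877. Scaled on library size, 572 were higher and 627 lower. Of the members, 4 were DEGs, 2 with the test against a fold change of 2 (Lif and Il6ra) and 3 to 4 without one library. Of the 36 pathway genes, 16 were DEGs, 9 with the test against a fold change of 2 and 13 to 17 without one library. The log2 fold change of Il6 lost its call with no low-count filter (7.21) and with the test against a fold change of 2 (7.23), and it ran from 5.69 to 8.47 without one library. With at least 10 counts required in every sample, Il6 could not be fitted. That of Osmr lost its call under the same 2 settings (2.18 and 2.19) and ran from 1.86 to 2.53. That of Socs3 gained a call with DESeq2 (3.19) and the exact test (3.19) and ran from 2.78 to 4.03. Il6st changed sign with library size scaling (−0.011). The cause of these changes was not tested, apart from the stricter threshold that the test against a fold change of 2 sets. Lif and Il6ra kept their calls in all 9 alternatives that used all libraries. With 1 in place of 0.5 added to each count, the log2 changes of the 3 ligand to receptor ratios were 3.84, 4.24 and 1.04.

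The replicate numbers are shared between the time points, but nothing in the labels says that a number marks shared mice. Deviations of same-numbered libraries from their group means correlated at 0.0109, 0.191 and 0.132 over the genes tested for numbers 1, 2 and 3. Every library correlated best with its own number, for 0 h replicate 1 only at 0.0109 against 0.0072 with 6 h replicate 3. This is a hint from the data and not the design. With the replicate number as a block, 1050 genes and 5 members were DEGs, and Socs3 had a log2 fold change of 3.37 (edgeR adjusted p = 9.06e-06). Pairing by number also gave 19 pathway DEGs. At these depths Osm, with 52 counts in all at 6 h PCS, is the member whose level is limited most by counting.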

Other observations

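Marker genes of blood and of tissues near the lens were also measured. All 4 matched globin genes (Hbb-bs, Hbb-bt, Hba-a1 and Hba-a2) were upregulated DEGs, and their summed level was 6.43 to 17.5 CPM at 0 h PCS and 62.6 to 114 CPM at 6 h PCS. Hbb-bs was the firmest of them (log2 fold change 3.09, Benjamini-Hochberg adjusted p = 0.00109 in the quasi-likelihood test of edgeR) and kept its call whichever library was dropped. The calls of Hbb-bt, Hba-a1 and Hba-a2 were lost in 4, 2 and 1 of those 6 fits, with edgeR adjusted p-values of 0.0522 to 0.142. The corneal keratin genes Krt12 and Krt5, 2 of 4 listed, summed to 0.765 to 14.7 CPM at 0 h PCS and 69.2 to 104.1 CPM at 6 h PCS. Neither passed the FDR limit, with adjusted p-values of 0.0792 for Krt12 and 0.146 for Krt5 from the same edgeR test, and both were DEGs without 0 h replicate 1 (0.00125 and 0.0359) or 0 h replicate 2 (0.0475 and 0.0258). DESeq2 called both. Of the 0 h libraries, replicate 1 had the most of both keratins (163 and 179 counts). It was also the highest 0 h library in Il6, Lif, Il6ra, Il6st and Socs3. At 6 h PCS, replicate 2 had the most of both keratins (65.8 and 38.4 CPM) and the least Socs3 (265 CPM). The endothelial genes Pecam1, Cdh5 and Tek summed to 0.949 to 2.11 CPM and 3.42 to 10.1 CPM, and 0 of the 3 were DEGs by the same edgeR test, while 2 had an unadjusted p under 0.05 and 2 were DEGs by DESeq2 (Pecam1 and Cdh5). Cdh5 was also called with library size scaling (log2 fold change 3.01, edgeR adjusted p = 0.0451) and without 6 h replicate 1 (3.69, 0.0399). The stromal genes Col1a1, Col1a2 and Dcn summed to 82.3 to 116 CPM and 90.6 to 201 CPM, and 0 of the 3 were DEGs by edgeR or DESeq2 (1 had an unadjusted p under 0.05 in edgeR) unless libraries were scaled on their size, when Dcn was lower. The part of these cells in the levels of the IL-6 family genes was not tested.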
